A study of Homo sapiens with 4 samples.

Results

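MT-TK and MT-TG encode the mitochondrial tRNAs for lysine and glycine. They are 2 of the 37 genes of the human mitochondrial genome and 2 of the 14 tRNAs read from the heavy-strand files. They were selected on the measured difference itself: their mismatch fractions after dimethyl sulfate (DMS) were higher in cells without LRPPRC. The difference between knockout and wild type at these 2 tRNAs is therefore given as a description, and no test of it is drawn on. Counts of calls from a fit over the whole file are printed only beside the share of the file that was called. The members are 41 A and C positions of MT-TK and 38 of MT-TG, the bases that DMS methylates when they are unpaired. The 29 G and T positions of MT-TK and 30 of MT-TG serve as a background that DMS does not report on in the same way.

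The study probed isolated mitochondria of an established human embryonic kidney line, named HEK-293T in the growth protocol and HEK 293 in the source field of the labels, with 1% DMS for 5 min at 37 °C. Both groups received the same treatment: wild type (WT, n = 2 biological replicates) and LRPPRC KO (n = 2 biological replicates). The way the knockout was made, and whether it is 1 clone, are not given in the sources used here. LRPPRC is an RNA-binding protein of mitochondria that helps to maintain mitochondrial mRNAs, and its own transcript, made in the nucleus, was not analysed here and gives no check of the labels. Each value is a mismatch fraction, printed as a percent, read as the share of reads covering a position that differ from the reference base. The files hold no read counts, so the depth of every library is unknown and no counting interval is given. An untreated library was not analysed here.

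Mitochondrial tRNAs sit between the mRNAs on long transcripts, and their excision at both ends releases the mRNAs beside them. The excised tRNA receives a CCA tail that the genome does not encode, and it folds into a cloverleaf with acceptor, D, anticodon and T arms. Some bases carry native methyl groups on the Watson-Crick face, such as 1-methyladenosine, which a reverse transcriptase can read as a mismatch without any DMS. Reads over a tRNA gene can come from the excised tRNA or from transcripts that still hold it. The libraries do not separate these, so the share of each kind in a value is unknown. A difference between groups in that share and one in the reactivity of either kind cannot be told apart.

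The sequences below were read from the base column of the heavy-strand files and are shown with unpaired bases of the cloverleaf in capitals, because the arms order the values that follow. MT-TK (gene ID 4566) spans positions 8294 to 8363 in the files' numbering. This is 8295 to 8364 on chromosome MT in the RefSeq gene table of GRCh38.p14, whose numbering is 1 higher here. It is 70 nt long and lies 25 nt after COX2 and 1 nt before ATP8. MT-TG (gene ID 4563) spans 9990 to 10057 in the files (9991 to 10058 in the table). It is 68 nt long and directly abuts COX3 and ND3. In the cloverleaf, all 21 stem pairs of MT-TK were Watson-Crick pairs, and MT-TG had 20 of 21 and 1 G-U pair. Offsets below count from 1 at the 5′ end of each tRNA.
MT-TK: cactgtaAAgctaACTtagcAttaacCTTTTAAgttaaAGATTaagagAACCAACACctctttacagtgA
MT-TG: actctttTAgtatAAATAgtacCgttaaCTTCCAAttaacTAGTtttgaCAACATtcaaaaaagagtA

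In MT-TK, the mean over A and C was 0.897% and 1.07% in the wild-type libraries and 1.63% and 1.58% in the knockout libraries. Both knockout libraries lay above both wild-type libraries, and the ratio of the group means was 1.63 (0.985% ± 0.124 against 1.61% ± 0.0320, SD, n = 2 each). In MT-TG the same mean was 0.337% and 0.553% in wild type against 0.856% and 0.910% in the knockout. The groups did not overlap, and the ratio was 1.99 (0.445% ± 0.153 against 0.883% ± 0.0382). The wild-type libraries of MT-TG differed from each other by more than the knockout libraries did, with replicate 1 the lowest. The medians over A and C moved by similar factors, 2.03 in MT-TK and 1.96 in MT-TG.

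Without scaling, the surrounding RNA went the other way at these bases. All percents and their ratios are given without scaling. The median over the 10265 A and C positions of the heavy-strand files was 2.94% ± 0.00849 in wild type against 1.86% ± 0.00283 in the knockout. Over the 50 nt upstream and downstream of MT-TK, the A and C means were 0.814 and 0.709 times the wild-type values in the knockout. Beside MT-TG they were 0.607 and 0.618 times. A library-wide scaling thus decides how large a change appears. Without scaling, the mean log2 change over tested A and C positions (mean fraction between 0.2% and 30.0% over the 4 libraries) was 0.61 in MT-TK and 0.90 in MT-TG. After each library was centred on its median over tested A and C positions, which differed by -0.63 between the groups, the changes were 1.24 (SE 0.09) and 1.53 (SE 0.23). Of these tested positions, 4 of 38 and 9 of 33 were under 0.2% in wild type and so had to be higher in the knockout. Over all 41 and 38 A and C positions, with no filter, the centred means were 1.21 and 1.51.

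**Figure D1:**
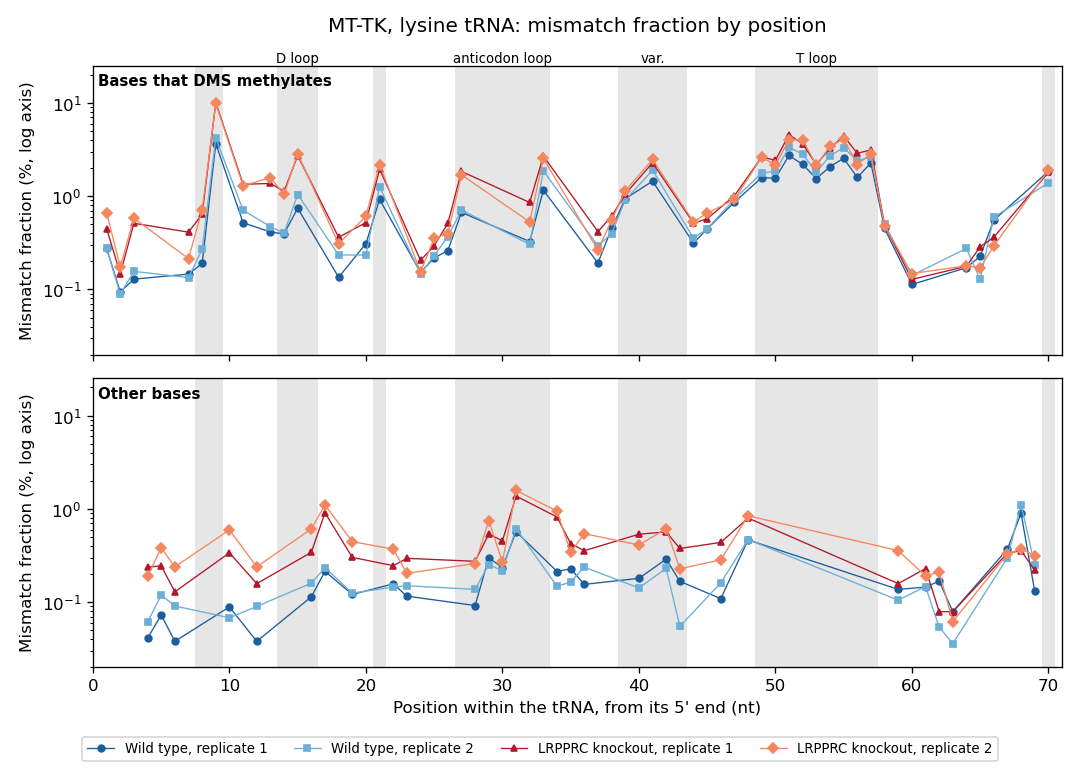
Mismatch fraction in percent (log axis) at each position of MT-TK, for A and C (upper panel) and G and T (lower panel), with 1 line per library and unpaired parts of the cloverleaf in grey. The knockout lines lie above the wild-type lines over the 5′ part and meet them in the 3′ strands of the T and acceptor stems, and the peak at offset 9 reaches 10.1% and 9.86% in the knockout.

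The arms of MT-TK kept the contrast that the cloverleaf predicts in both groups. Its 20 unpaired A and C positions averaged 1.68% in wild type against 2.76% in the knockout, and its 21 paired ones 0.322% and 0.505%. On the log2 scale, tested loop positions exceeded tested stem positions by 1.74 and 1.87 in wild type and by 2.01 and 2.03 in the knockout. The highest wild-type arm was the T loop, at 2.26% ± 0.357, and it was at 3.15% ± 0.123 in the knockout, a ratio of 1.39. The D loop was at 0.645% in wild type against 1.94% in the knockout, 3.00 times as high.

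The ratio of knockout to wild type in MT-TK was largest in the arms near the 5′ end. It was 2.42 in the 5′ strand of the acceptor stem, 2.56 in the linker that holds offset 9, 2.65 in the 5′ strand of the D stem and 2.01 in the anticodon loop, which presents the anticodon to the mRNA. It was 1.34 in the variable loop, 1.25 in the 5′ strand of the T stem and 1.03 in its 3′ strand. In the 3′ strand of the acceptor stem the mean was 0.324% in wild type against 0.244% in the knockout, a ratio of 0.754 without scaling and with no overlap between the groups. Centring turned this direction, to a mean log2 change of 0.43, against 1.47 in the 5′ strand. The 3′ strand holds 3 A and C positions, and offset 66 alone had both knockout libraries below both wild-type libraries.

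Single positions of MT-TK showed the same order. The C at offset 15, in the D loop, was at 0.743% and 1.04% in wild type against 2.73% and 2.85% in the knockout, the largest centred change of an A or C in this tRNA (log2 2.19, or 1.56 without scaling). Offset 13, an A of the D stem, was at 0.413% and 0.471%, then 1.37% and 1.58%. The C at offset 3, in the acceptor stem, was at 0.129% and 0.156%, then 0.512% and 0.579%. At all 3 positions the groups were far apart relative to the gap within a group. Offset 3 lay under 0.2% in wild type and passed the lower limit for testing only through its knockout values. Offset 14, an A of the D loop, was at 0.394% and 0.402% in wild type against 1.13% and 1.04% in the knockout.

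The A and C positions of MT-TK with the lowest changes lay toward its other end, and without scaling they were level or lower. The A at offset 66, in the 3′ strand of the acceptor stem, was at 0.551% and 0.594% in wild type against 0.362% and 0.292% in the knockout, and the groups did not overlap. Offset 64, also an A, was at 0.171% and 0.275%, then 0.177% and 0.179%, so the knockout values lay between the wild-type ones. The C at offset 58, the first base of the T stem's 3′ strand, was at 0.450% and 0.50%, then 0.486% and 0.481%. Not all bases there were lower. The C at offset 65 was at 0.226% and 0.128%, then 0.286% and 0.171%. The unpaired last base, offset 70, was at 1.84% and 1.38%, then 1.79% and 1.89%, and the groups overlapped at both. Beside offset 9, the highest wild-type positions were the C at offset 51, at 2.73% and 3.34%, and the C at offset 55, at 2.55% and 3.31%, both in the T loop. In the knockout they were at 4.56% and 4.04%, and at 4.41% and 4.12%.

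**Figure D2:**
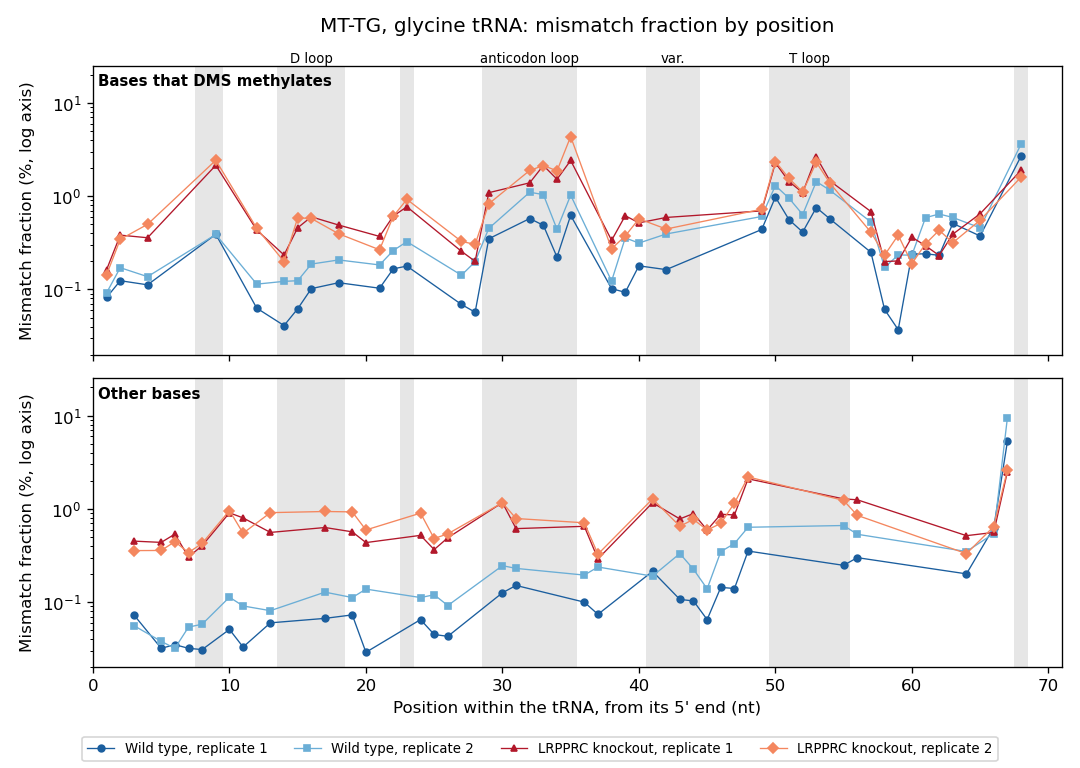
Mismatch fraction in percent (log axis) at each position of MT-TG, for A and C (upper panel) and G and T (lower panel), with 1 line per library and unpaired parts of the cloverleaf in grey. In the lower panel the knockout lines run well above both wild-type lines along most of the tRNA, and the order turns at offset 67, where wild type is at 5.28% and 9.49%.

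MT-TG was the less reactive of the 2 tRNAs in wild type. Its 18 unpaired A and C positions averaged 0.671% in wild type against 1.43% in the knockout, and its 20 paired ones 0.242% and 0.391%. Loop positions exceeded stem positions by 0.83 and 0.88 in wild type on the log2 scale, and by 1.38 and 1.49 in the knockout. The anticodon loop was at 0.631% ± 0.255 in wild type against 1.96% ± 0.356 in the knockout, 3.10 times as high. The T loop was at 0.874% and 1.76%, a ratio of 2.01. The D loop was at 0.120% in wild type, close to the 5′ strand of the acceptor stem (also 0.120%), and at 0.442% in the knockout.

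In MT-TG, too, the ratios were higher toward the 5′ end. The 5′ strand of the acceptor stem was 2.63 times as high in the knockout, the 5′ strand of the D stem 5.00 times, the anticodon stem's 5′ strand 2.33 times and the 5′ strand of the T stem 1.36 times. The 3′ strand of the acceptor stem was at 0.454% in wild type against 0.396% in the knockout, a ratio of 0.872, and here the groups overlapped (0.339% and 0.570%, then 0.391% and 0.402%). After centring the mean log2 change of this strand was 0.48, above 0. The discriminator base, the unpaired last base to which the CCA tail is joined, was the most reactive A or C of MT-TG in wild type, at 2.68% and 3.61%. It was at 1.89% and 1.60% in the knockout, below both wild-type libraries.

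Among single A and C positions of MT-TG, the A at offset 9 had the largest change and is described with the native methylation sites. The next were neighbouring A positions of the anticodon loop. Offset 34 was at 0.222% and 0.442% in wild type against 1.52% and 1.87% in the knockout (centred log2 change 2.72, or 2.09 without scaling). Offset 35 was at 0.622% and 1.02%, then 2.41% and 4.35%, so its knockout replicates also differed widely. The A at offset 15, in the D loop, was at 0.062% and 0.124%, then 0.458% and 0.585%. Offset 12, an A of the D stem, was at 0.063% and 0.114%, then 0.433% and 0.452%. These last 2 lay under 0.2% in wild type and passed the lower limit for testing only through their knockout values.

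Without scaling, low changes in MT-TG again lay in the acceptor stem's 3′ strand and beside it. The A at offset 63 was at 0.510% and 0.591% in wild type against 0.391% and 0.317% in the knockout. Offset 61, another A, was at 0.241% and 0.588%, then 0.294% and 0.308%, within the wild-type range. The strand was not uniform, as its A at offset 65 was at 0.374% and 0.457%, then 0.647% and 0.552%, above both wild-type libraries. Beside the discriminator base, the highest wild-type positions were in the T loop. The C at offset 50 was at 0.976% and 1.30%, then 2.27% and 2.35%, and the C at offset 53 was at 0.755% and 1.43%, then 2.63% and 2.31%.

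**Figure D3:**
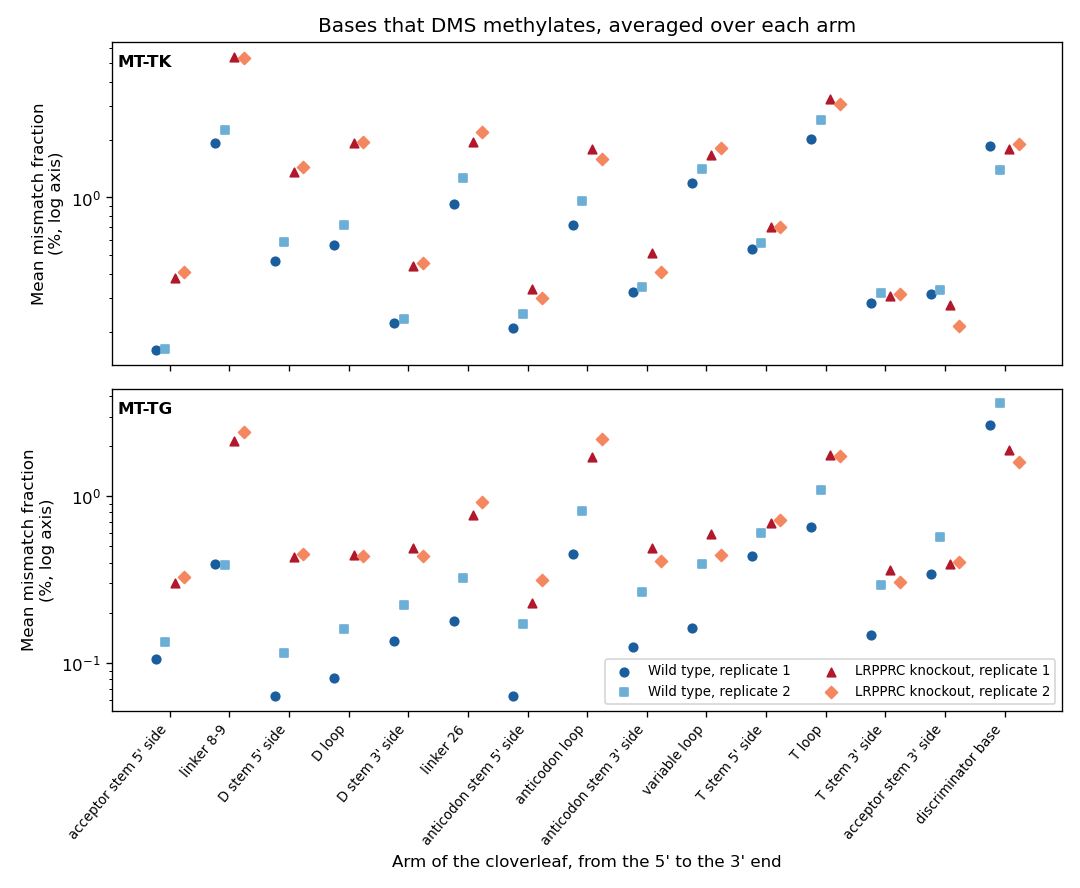
Mean mismatch fraction in percent (log axis) over the A and C positions of each arm, from the 5′ to the 3′ end, with 1 point per library. In both tRNAs the knockout points lie above the wild-type points from the 5′ acceptor strand to the anticodon loop, and in the 3′ acceptor strand the group mean without scaling is lower in the knockout (0.244% against 0.324% in MT-TK, 0.396% against 0.454% in MT-TG).

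Natively methylated adenosines were kept apart. The A at offset 9 is a site of 1-methyladenosine in mitochondrial tRNAs, written by TRMT10C and its partner, which also belong to the RNase P that cuts the 5′ end of tRNAs. In MT-TK it was the highest of all A and C positions, at 3.66% and 4.20% in wild type against 10.1% and 9.86% in the knockout, a ratio of 2.54. In MT-TG it was at 0.390% and 0.388%, then 2.14% and 2.42%, a ratio of 5.87. Deletions at this base of MT-TG were 0.226% and 0.337% in wild type against 1.63% and 1.64% in the knockout. In MT-TK they did not exceed 0.025% in any library.

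Among the other 12 heavy-strand tRNAs, 8 have an A at offset 9. Their ratio of knockout to wild type there ran from 0.459 (MT-TL2) to 1.83 (MT-TD), with a median of 1.06. It was above wild type in all libraries in 2 of the 8 and below in 2. Their deletions reached at most 0.914% in the knockout. The A of MT-TK at offset 53, taken as the 1-methyladenosine site of the T loop, was at 1.54% and 1.81% in wild type against 2.18% and 2.15% in the knockout, and it did not stand out among its neighbours. How much of each value is native methylation and how much is DMS was not tested. Without these sites the A and C means still differed, by 1.55 times in MT-TK (39 positions) and 1.89 times in MT-TG (37 positions).

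G and T, at which DMS leaves little mark that is read as a mismatch, moved as well. In MT-TK, the mean over G and T was 0.205% and 0.209% in wild type against 0.400% and 0.457% in the knockout, a ratio of 2.07. In MT-TG it was 0.297% and 0.533%, then 0.783% and 0.824%, a ratio of 1.94. The median over G and T of MT-TG was at 0.0735% and 0.165% in wild type against 0.604% and 0.704% in the knockout, 5.49 times as high. The same median in MT-TK was 2.29 times as high. The whole heavy-strand file had G and T medians of 0.596% ± 0.0205 in wild type against 0.653% ± 0.0113 in the knockout.

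The mean of MT-TG moved less than its median because 1 position dominated the wild-type mean. The T at offset 67, the last paired base of the acceptor stem, was at 5.28% and 9.49% in wild type against 2.50% and 2.61% in the knockout. Without it, the G and T mean of MT-TG was 0.125% and 0.225% in wild type against 0.724% and 0.763% in the knockout, 4.25 times as high. The T at offset 68 of MT-TK, in the same strand of its acceptor stem, was at 0.899% and 1.11% in wild type against 0.356% and 0.371% in the knockout. Leaving it out of the MT-TK mean gave a ratio of 2.41. Both choices were made after the values were seen.

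The largest G or T changes lay at the G of offset 34 in MT-TK, at 0.213% and 0.148% in wild type against 0.819% and 0.945% in the knockout, and at the G of offset 10 in MT-TG. The latter, the first base of the D stem, was at 0.051% and 0.113%, then 0.907% and 0.960%. At both, the lower knockout library was several times the higher wild-type one. Both averaged under 0.2% in wild type (0.18% and 0.082%) and passed the lower limit for testing only through their knockout values. On the log2 scale after centring on the A and C medians, the mean change over tested G and T positions was 1.49 in MT-TK and 2.22 in MT-TG (0.86 and 1.59 without scaling). Of these tested positions, 12 of 20 and 19 of 29 were under 0.2% in wild type and so had to be higher in the knockout. Over all 29 and 30 G and T positions, with no filter, the centred means were 1.41 and 2.22.

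The contrast between bases accordingly narrowed in MT-TG. The median over A and C divided by the median over G and T was 2.73 and 2.26 in its wild-type libraries and 0.987 and 0.746 in its knockout libraries. In MT-TK this ratio was 2.91 and 3.38, then 2.99 and 2.58, with the groups overlapping. The ratio of means was near 1 in MT-TG in both groups (1.09 and 1.10), since offset 67 raised the wild-type background. In the whole heavy-strand file, the ratio of means was 3.83 in wild type against 2.44 in the knockout. Part of the difference at A and C in these tRNAs thus stood beside a difference of like or larger factor at bases that give no DMS signal of the same kind, and the part of that background in the A and C values was not tested.

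The light-strand files, which number the complementary transcripts, were compared at the paired positions. Over the A and C opposite MT-TK the mean was 0.696% ± 0.0268 in wild type against 0.813% ± 0.0186 in the knockout. Opposite MT-TG it was 1.54% ± 0.000966 and 1.37% ± 0.0181. The rank correlation between each G or T of MT-TG and the base paired with it on the other strand was 0.146 and 0.201 in wild type against 0.633 and 0.618 in the knockout (30 positions of 1 tRNA, as a description). In MT-TK it was between 0.268 and 0.304 in all 4 libraries (29 positions). A part of reads from the other strand in these values was not tested.

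**Figure D4:**
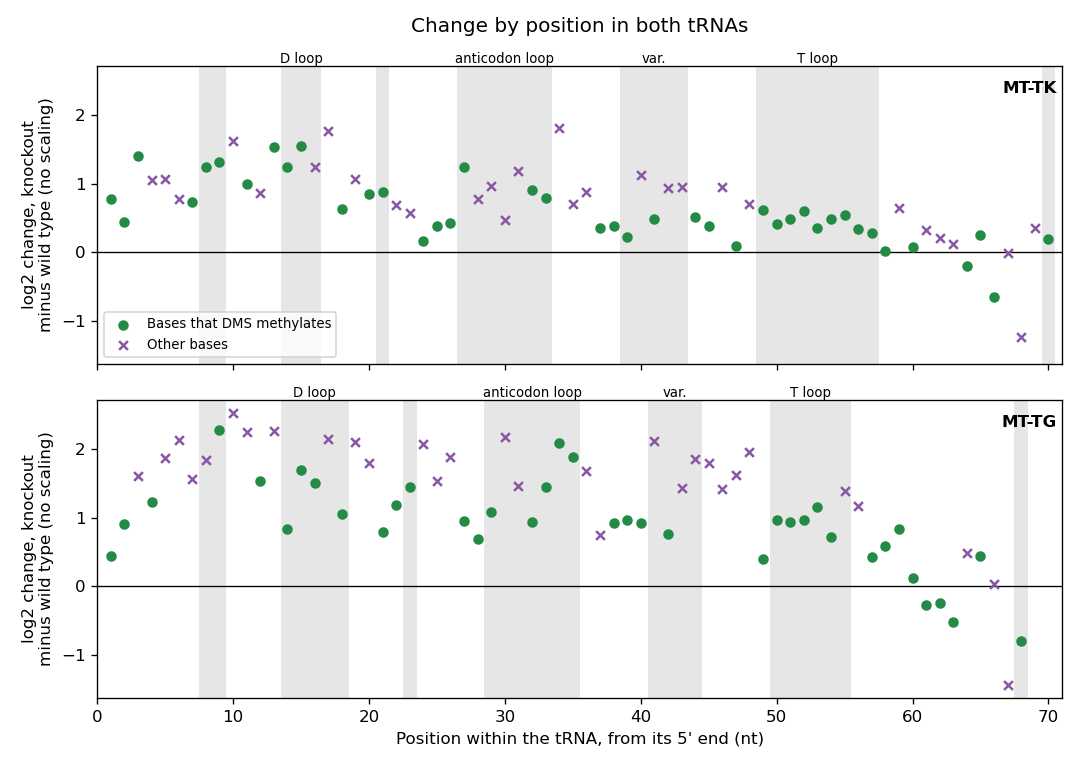
Difference of the mean log2 values (knockout minus wild type, without scaling) at each position of both tRNAs, with A and C as circles and G and T as crosses. The highest points of MT-TG and most of those of MT-TK lie in the 5′ part, and points below 0 of both kinds of base lie near the 3′ end.

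Position along the tRNA ordered the change for both kinds of base. Spearman's rho between offset and log2 change was -0.74 over A and C and -0.63 over G and T in MT-TK, and -0.61 for each in MT-TG. Some other heavy-strand tRNAs had a like order. At A and C their rho ran from -0.80 (MT-TD) to 0.17 (MT-TL2), with -0.68 in MT-TR and -0.64 in MT-TH and MT-TT. It was above 0 in MT-TF, MT-TS2 and MT-TL2. At G and T it ran from -0.81 (MT-TR) to 0.22 (MT-TF). These are descriptions over neighbouring positions read in the same libraries. A split of each tRNA at its midpoint, made after the values were seen, gave A and C ratios of 2.34 for the 5′ part and 1.33 for the 3′ part of MT-TK. In MT-TG they were 3.16 and 1.56. For G and T the ratios were 2.88 and 1.41 in MT-TK, and 7.50 and 1.27 in MT-TG.

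To show where the differences lie, the sequences are given again with a capital at each base, of any kind, at which the lower knockout library was at least 2 times the higher wild-type library. There were 16 such bases in MT-TK and 35 in MT-TG, and in MT-TG the capitals, in several runs, make up most of its 5′ part.
MT-TK: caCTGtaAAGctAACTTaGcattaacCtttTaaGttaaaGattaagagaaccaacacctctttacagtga
MT-TG: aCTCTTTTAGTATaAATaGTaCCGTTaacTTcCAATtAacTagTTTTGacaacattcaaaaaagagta

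The same counts were set against the heavy-strand file. At A and C, 7 of 41 positions of MT-TK and 12 of 38 of MT-TG passed this 2-fold limit, against 0.536% of all A and C positions. At G and T, 9 of 29 and 23 of 30 passed, against 5.23% of all G and T positions. The knockout libraries lay above both wild-type libraries, by any amount, at 32 and 31 A and C positions (7.63% over the file) and at 24 and 27 G and T positions (37.7%). They lay below both at 1 and 2 A and C positions (83.7% over the file) and at 1 G or T position of each tRNA (37.8%). No member position was listed at 0 in any library. Because the 2 genes were picked for this contrast, nothing is read from these shares.

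Calls by limma over the whole file, with Benjamini-Hochberg adjustment, are listed for description only: the genes were selected on these same values, so the calls are no test of them. After centring, 36 of the 38 tested A and C positions of MT-TK and 27 of the 33 of MT-TG were called higher in the knockout, where 44.9% of all tested A and C positions were. Without scaling the counts were 28 and 22, against 4.73% over the file, and 1 and 2 positions were called lower, against 78.3%. At G and T, 19 of 20 and 28 of 29 were called higher after centring (85.5% over the file), and 16 and 26 without scaling (29.8%). The filter left out 3 and 5 A and C positions, and 9 and 1 G and T positions, that averaged under 0.2%. Of the A and C positions that passed it, 4 in MT-TK and 9 in MT-TG were under that value in wild type and so had to be higher in the knockout. At G and T this held for more of them, 12 of the 20 in MT-TK and 19 of the 29 in MT-TG that passed the filter.

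The bases just outside the tRNAs are shown with the tRNA in capitals, since the ends are where it is cut from the transcript. At the 5′ end of MT-TK (8284 to 8303) and at the 3′ end of MT-TG (10048 to 10067) the flanking positions with the largest changes were found.
MT-TK 5′ end: ctctagagccCACTGTAAAG
MT-TG 3′ end: AAAAAGAGTAataaacttcg

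The C that lies 2 nt upstream of MT-TK was at 0.381% and 0.468% in wild type against 2.83% and 2.36% in the knockout (centred log2 change 2.99). Its neighbour next to the tRNA was at 0.730% and 0.762%, then 1.41% and 1.72%. The A directly after MT-TG, the first base of ND3, was at 0.319% and 0.248% in wild type against 3.43% and 3.46% in the knockout (centred log2 change 3.84). The T that follows it was at 0.337% and 0.346%, then 4.62% and 4.78%, while the A after that was at 0.850% and 0.910%, then 0.949% and 0.964%. After MT-TK, the A next to the tRNA was at 0.185% and 0.175%, then 0.581% and 0.578%. The bases after each tRNA, unlike those before it, are where the CCA tail of a mature tRNA would lie in an alignment to the genome, and the part of the tail in those values was not tested.

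**Figure D5:**
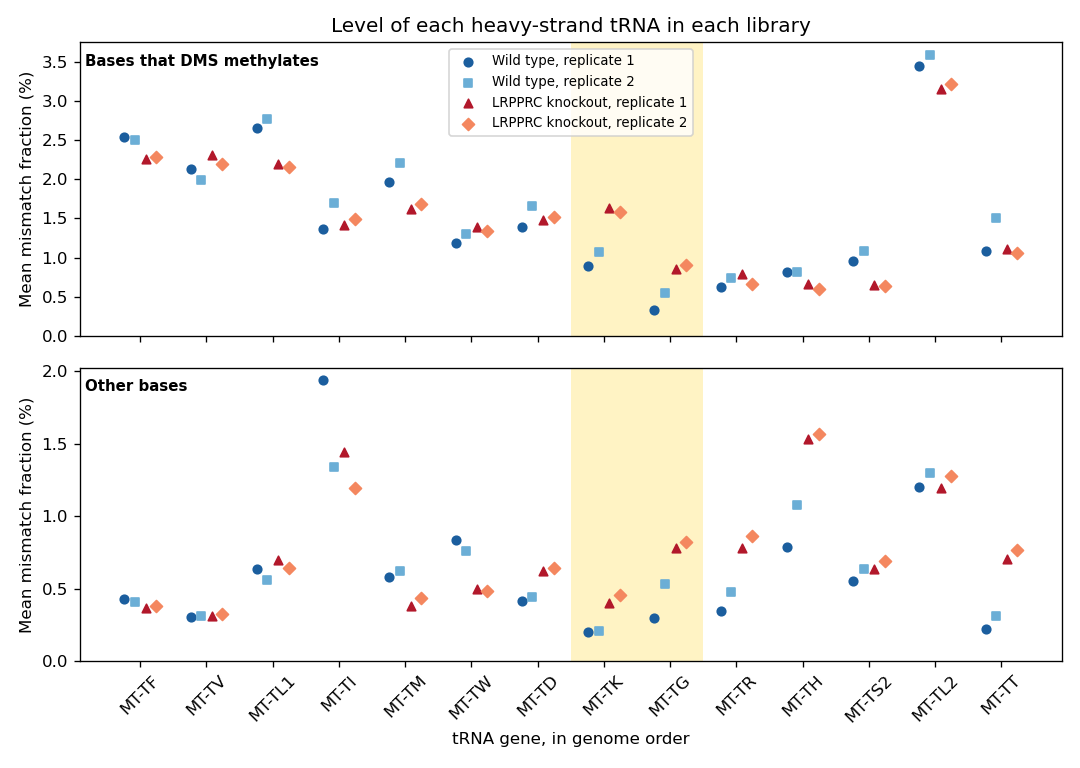
Mean mismatch fraction in percent over the A and C (upper panel) and G and T positions (lower panel) of the 14 heavy-strand tRNAs in genome order, with 1 point per library and MT-TK and MT-TG shaded. MT-TG is the lowest tRNA at A and C in wild type (0.445%) and MT-TK is at 0.985%.

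Among the 14 heavy-strand tRNAs, MT-TG had the lowest wild-type A and C mean, at 0.445%, followed by MT-TR at 0.682%, MT-TH at 0.811%, MT-TK at 0.985% and MT-TS2 at 1.02%. MT-TK and MT-TS2 differed by less than the 0.124 SD of MT-TK. In the knockout, MT-TG ranked 4 and MT-TK ranked 9 from the lowest. The other 12 tRNAs had knockout to wild-type ratios of 0.626 to 1.10 at A and C, with 3 of 12 above 1, and of 0.615 to 2.77 at G and T, with 7 of 12 above 1. At G and T, MT-TT had a ratio of 2.77 and MT-TR of 1.99, beside 2.07 in MT-TK and 1.94 in MT-TG.

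In the gene-level fit of limma, 9 of the other 12 were called higher after centring, where 59.5% of the 37 genes were. Without scaling, 0 of them were called higher (also 0 at an unadjusted p under 0.05), where 8.11% of genes were, and 6 were called lower, where 64.9% were. Patterns were compared by the 4 libraries' centred means after each gene's own mean over the 4 libraries was subtracted. The distances thus leave out the level of each gene. Of the other 12, MT-TW was nearest to both tRNAs (Euclidean distance 0.465 from MT-TK and 0.807 from MT-TG), then MT-TR (0.530 and 0.859). The distance between MT-TK and MT-TG was 0.411. MT-TW had a centred change of 0.77 and one of 0.14 without scaling.

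The lean of the difference to the 5′ part was also set against the other tRNAs. The mean log2 value of the 5′ part minus that of the 3′ part, at A and C, in MT-TK was -1.03 in wild type against -0.39 in the knockout, and in MT-TG it was -0.87 against -0.20. The shift between groups was 0.64 and 0.67. In the other 12 it ran from -0.22 to 0.74 with a median of 0.16, and MT-TH had the highest. This shift was above 0 in 7 of the 12, with MT-TD at 0.53, MT-TR at 0.44 and MT-TT at 0.42 next after MT-TH. At G and T the shift was 0.58 in MT-TK and 0.79 in MT-TG, against -0.12 to 0.52 in the other 12, with a median of 0.11. MT-TR (0.522), MT-TD (0.519) and MT-TH (0.513) lay at the top of that range, close to MT-TK. With 2 libraries against 2, an exact permutation test of a single value cannot go below p = 0.333, so none of these was tested.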

How the data were processed

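Per the labels' protocols, RNA from DMS-treated mitochondria was made into libraries with TGIRT-III, with products selected near 300 nt. The submitters' processing notes name cutadapt and Bowtie2, with no version given in the sources used here. The deposited values are mismatch fractions per position, 1 file per strand and library, with no counts, per the file headers. The second column, mismatches with deletions, gave deletions by subtraction. File positions matched the gene table after lowering it by 1 beyond the large rRNA: 13 of 13 coding genes then opened, against 0 of 13.

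Fractions were transformed as log2(fraction + 0.001), centred on each library's median over tested A and C positions (mean 0.002 to 0.3), and fitted with limma 3.58.1 in R 4.3.3 (eBayes with trend, two-sided, adjusted p threshold 0.05) over the whole heavy-strand file. G and T were fitted apart with the same centring. Fold changes on this scale understate changes at low positions. Fits were tested on simulated data. Cloverleaf arms were placed by hand and checked by pairing in the base column. The genes, lists and rules were chosen with earlier results of these data known. Named positions were, per tRNA, the 5 A or C with the largest centred change, the 3 with the lowest, the 3 highest in wild type, the native sites, and the G or T and the flanking A or C within 10 nt with the largest change. Others were named after their values were seen. Tables were made in Python 3.11.15 with pandas 2.3.3, numpy 2.4.6 and scipy 1.17.1, and figures with matplotlib 3.10.9.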

Additional observations from a re-analysis of the deposited data

How the results depend on the processing

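Under all alternatives run, the mean changes of both tRNAs kept their direction. Without centring, the log2 changes were 0.61 and 0.90 at A and C (MT-TK, MT-TG) and 0.86 and 1.59 at G and T. With quantile normalization they were 1.06 at A and C of MT-TK, and 0.91 and 1.66 at G and T. Centring on the highest 5% of positions gave 1.41 at G and T of MT-TK. A pseudocount of 0.0001 gave 1.35 at A and C of MT-TK and 1.81 and 2.86 at G and T, and one of 0.01 gave 0.79 and 0.84 at A and C and 0.74 and 0.96 at G and T. A lower limit of 0.01 on the mean fraction gave 1.79 and 0.87 at G and T, and no lower limit gave 1.41 in MT-TK. The limit of 0.01 left only 1 G or T position in MT-TK and 2 in MT-TG. Of those in MT-TG, offset 67 was lower in the knockout (-0.81 with the main settings). A alone gave 1.05 in MT-TK, C alone 1.53 and 1.87, G alone 1.60 and T alone 1.41 in MT-TK. Positions called higher numbered 17 and 9 under the limit of 0.01, beside 3533 of the 8269 tested over the file. They numbered 23 and 16 for A alone (1943 of 4930 over the file) and 13 and 11 for C alone (2440 of 4980). Fewer positions were tested in these settings. These counts are descriptions, as the genes were selected on the same contrast. The difference of loop and stem in MT-TK was, in wild type and knockout, 2.07 and 2.23 with 0.0001, 0.90 and 1.16 with 0.01, 1.94 and 2.19 with no lower limit, 1.59 and 1.89 for A, 2.27 and 2.37 for C, and 1.71 and 1.91 without the native sites. In the knockout it was also 1.99 with deletions, 2.04 with A and C centred apart, and 2.15 without terminal pairs. In MT-TG it was 1.07 and 1.61, 0.34 and 0.73 with the same pseudocounts and 1.29 and 1.53 for C, and in wild type 0.90 with no lower limit, 0.91 with deletions, 0.63 for A and 0.97 without terminal pairs. The cause was not tested.

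Leaving out 1 library at a time gave changes at A and C of 1.15 to 1.33 in MT-TK and 1.24 to 1.82 in MT-TG. At G and T they were 1.43 to 1.56 and 1.96 to 2.48. The difference of loop and stem was 1.74 to 1.87 in wild type and 2.01 to 2.03 in the knockout in MT-TK, and 0.83 to 0.88 and 1.38 to 1.49 in MT-TG. Same-numbered replicates did not deviate together (r = 0.000704 over 9910 positions). With the replicate number as a block, 36 and 27 A and C positions were called higher, beside 4301 of 9910 over the file. The changes were 1.24 and 1.53 at A and C and 1.49 and 2.22 at G and T.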
